A study of Mus musculus with 5 samples.

Results

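The H2AK119Ub landscape described here is that of haematopoietic progenitors that had received no oncogene, read from the 1332 peaks listed for the non-transduced library. These were all the peaks of that list, out of 5132 peaks listed for the 4 immunoprecipitated libraries of the series. The cells were lineage-negative (Lin-) bone marrow progenitors of C57BL/6 mice, enriched with a progenitor kit and kept in liquid culture, and labelled R26CreERT2;Ring1a-/-;Ring1bf/f;Cdkn2a-/-. R26CreERT2 is a Cre recombinase that tamoxifen activates, placed at the widely expressed Rosa26 locus. Ring1b is a floxed gene that Cre can delete, and whether Cre had been activated is not stated in the labels. Loss of Cdkn2a, which encodes the cell cycle inhibitors p16INK4A and p19ARF, lets progenitors keep dividing in culture. All samples of the series shared this genotype. The non-transduced group had 1 library and no replicate, so the values below describe that library, and no test between groups was made. The list holds no read counts, and the depth of the library is unknown.

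Histone H2A ubiquitinated at lysine 119 (H2AK119Ub) is the product of the ubiquitin ligases RING1A and RING1B, which sit at the core of Polycomb repressive complex 1 (PRC1). With Ring1a deleted, RING1B is the remaining one of the pair. PRC1 is drawn to CpG-rich promoters, in part through its KDM2B-containing variant and in part through H3K27me3, the mark of Polycomb repressive complex 2. In blood progenitors its targets include the Hox clusters and other developmental transcription factor genes that are silent or tightly limited in these cells.

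Promoters of genes at loci that carried peaks are shown to let the CpG content be read directly. They are the 250 bases upstream of the gene start in the RefSeq table of build GRCm38.p6, written 5′ to 3′ on the strand of the gene, with every CG dinucleotide in capitals. The peaks are on build mm9, for which no genome sequence was at hand. The promoters were therefore matched to loci by gene symbol, and no base below was read from a peak.
Wnt1: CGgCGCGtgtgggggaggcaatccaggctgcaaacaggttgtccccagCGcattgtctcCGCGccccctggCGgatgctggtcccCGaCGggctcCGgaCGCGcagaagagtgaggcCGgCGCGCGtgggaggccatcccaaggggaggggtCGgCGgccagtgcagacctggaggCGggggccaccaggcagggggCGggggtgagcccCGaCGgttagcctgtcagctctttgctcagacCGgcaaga
Wnt10b: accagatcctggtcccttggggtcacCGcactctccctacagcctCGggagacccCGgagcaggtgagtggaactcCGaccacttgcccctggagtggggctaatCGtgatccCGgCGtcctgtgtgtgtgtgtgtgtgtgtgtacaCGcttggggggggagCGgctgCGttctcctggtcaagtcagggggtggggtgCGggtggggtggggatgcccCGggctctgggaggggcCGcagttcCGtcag
Tlx1: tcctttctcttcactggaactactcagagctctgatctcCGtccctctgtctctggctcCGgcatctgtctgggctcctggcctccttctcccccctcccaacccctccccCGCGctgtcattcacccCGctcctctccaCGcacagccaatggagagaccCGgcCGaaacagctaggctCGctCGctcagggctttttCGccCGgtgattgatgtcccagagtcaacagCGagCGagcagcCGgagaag
Foxf2: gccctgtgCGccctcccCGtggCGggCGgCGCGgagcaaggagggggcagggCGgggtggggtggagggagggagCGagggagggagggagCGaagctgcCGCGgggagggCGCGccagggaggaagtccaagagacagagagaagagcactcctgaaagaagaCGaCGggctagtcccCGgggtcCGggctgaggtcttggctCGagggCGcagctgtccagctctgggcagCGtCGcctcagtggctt
Hoxa9: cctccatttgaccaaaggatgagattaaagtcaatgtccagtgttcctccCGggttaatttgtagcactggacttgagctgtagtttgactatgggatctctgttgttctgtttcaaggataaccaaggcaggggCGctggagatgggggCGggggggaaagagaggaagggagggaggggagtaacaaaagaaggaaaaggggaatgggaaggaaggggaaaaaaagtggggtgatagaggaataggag

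The Wnt1 promoter held 23 CG dinucleotides and that of Foxf2 held 21. As many as in Wnt1 were found in 13.3% of all 32851 promoters of the table, and as many as in Foxf2 in 16.3%. Tlx1 held 15 and Wnt10b held 14, numbers reached by 27.3% and 29.4% of all promoters. Hoxa9 held 3, a number reached by 71.0% of all promoters. It was not typical of its family: the 24 Hox promoters in the table had a median of 12.5 and ranged from 2 to 35. The CG motif reads the same on both strands. It occurred at least 1 time in 92.1% of all promoters, whose median was 6. Of the 51 protein-coding genes that the table places in order at the 9 loci described below, 31 had a promoter sequence. Their 34 promoters had a median of 13.5 CG dinucleotides and ranged from 2 to 35. These include the 24 Hox promoters, so the medians of 13.5 and 12.5 are not separate results. Genes were taken by locus, whether or not a peak lay over them.

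The listed H2AK119Ub peaks were broad. Their widths and breaks depend on the settings of the peak calling, which are not given. The peaks covered 31.4 Mb, or 1.19% of the 20 chromosomes that held a peak. The median width was 18.3 kb (95% order-statistic interval 17.4 to 19.5) and the mean was 23.6 kb. The middle 50% of the peaks lay between 11.6 and 29.4 kb, the narrowest 5% were under 5.23 kb and the widest 5% over 63.1 kb. Narrow peaks were few in this list: 61 peaks (4.58%, exact 95% binomial interval 3.52 to 5.84) were under 5 kb. Together they held 0.701% of the covered length. No listed score was below 700 and 434 peak numbers were missing, so the widths of any unlisted calls are not known.

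The widest domains carried a large part of the mark by length. The 133 widest peaks, each of at least 45.3 kb, held 28.7% of the covered length. The widest 317 peaks held 50% of it, while the narrower 666 peaks held 23.6%. Peaks of 20 to 50 kb formed the largest width class, with 507 peaks (38.1%, interval 35.4 to 40.7) and 48.4% of the covered length. There were 108 peaks of 50 kb or more, of which 9 exceeded 100 kb.

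The authors' score of each peak, a value without a stated scale, ran from 700 to 2107 with a median of 928. Scores of at least 1000 were given to 503 peaks (37.8%, interval 35.2 to 40.4), scores of at least 1500 to 45 peaks and scores of at least 2000 to 2 peaks. The lowest value was shared by 2 peaks, at chr9:62981242-63010339 and chr11:118902713-118917270. Scores were not spread evenly: the 1332 peaks took 260 distinct values. A score of 766 was given to 83 peaks, 844 to 69 and 839 to 67, and the 5 most common values together marked 304 peaks (22.8%, interval 20.6 to 25.2). Ranks by score therefore contain many ties.

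Wider peaks tended to score higher, with much scatter. The median width was 15.3 kb in the lowest-scoring 333 peaks, 16.0 kb and 18.7 kb in the next 333 and the 333 after them, and 24.3 kb in the highest-scoring 333. Read the other way, the median score was 839 for peaks under 5 kb, 915 for peaks of 10 to 20 kb and 1019 for peaks of 50 to 100 kb. Spearman's rho between width and score was 0.24 across the 1332 peaks. The peaks share 1 library and 1 calling run, so no p-value is given. Taken by chromosome, rho was above 0 on all 19 autosomes and ranged from 0.03 on chromosome 12 to 0.52 on chromosome 17.

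**Figure D1:**
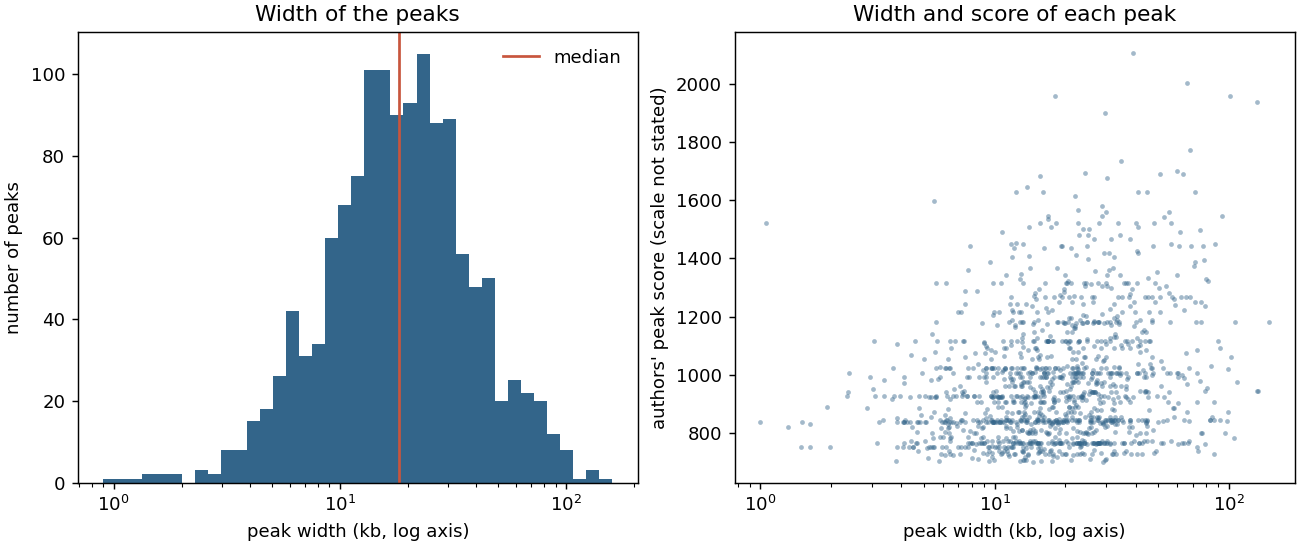
The left panel counts the 1332 peaks of the non-transduced library by width in kb on a log axis, with the median of 18.3 kb as a line. The right panel plots each peak as a point, with its width in kb on a log axis and the authors' score on the vertical axis; horizontal rows of points are the repeated scores such as 766, and the single point at the far left above 1500 is a peak of 1.06 kb with a score of 1522.

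The 10 widest peaks measured 98.7 to 149 kb, and their scores spanned most of the range, from 782 to 1957 with a median of 1040. The widest, at chr2:166919842-167068380, was 149 kb long with a score of 1180. A further peak of 102 kb lay 401 kb before it, at chr2:166417575-166519255. The next widest, 133 kb at chr15:102743028-102876080, lies at the HoxC cluster. The third widest, of 132 kb, was at chr6:89216203-89348452 and scored 946. It was the centre of 3 peaks, with gaps of only 1.46 and 0.975 kb on its sides. The fourth, also of 132 kb, was at chr15:78445380-78577609 and was among the highest scores too, at 1937. Chromosome 7 had a pair of very wide peaks near its distal end, 105 kb at chr7:151344935-151450432 and 108 kb at chr7:151770085-151878385. The first of these had a score of 782, the lowest of the 10. The rest were at chr16:18534260-18640056 (106 kb), at chr11:116772451-116873861 (101 kb) and at chr11:118346116-118444813 (98.7 kb). The next peak after these 10 was almost as wide, at 98.681 kb.

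The 10 highest-scoring peaks had scores of 1694 to 2107 and a median width of 49.4 kb, and 2 of them were also among the 10 widest. Of these 10, 3 were on chromosome 15 and 3 on chromosome 11. The top score of 2107 belonged to a peak of 39.0 kb at chr19:45295482-45334443, at the locus of Tlx1 and Lbx1. The second, 2003, belonged to 66.4 kb at chr15:88959562-89025974. A score of 1957 was shared by 2 peaks of chromosome 11, one of 18.2 kb at 85647175 to 85665354 and the 101 kb peak named above. The 101 kb peak thus ranked 9 by width and 3 by score. Scores of 1901 and 1736 were found at chr2:27533208-27562859 and at chr11:96852410-96887193. A peak of 59.9 kb at chr7:86636654-86696517 had a score of 1702 and stood 6098 kb from the peak before it. The next score below these 10 was 1689.

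At the narrow end, the smallest peak was 0.998 kb long, at chr2:165818581-165819578, with a score of 839. The second smallest, 1.06 kb at chr6:125367746-125368803, had a score of 1522. It was the only peak under 5 kb among the highest-scoring 133, all of which had at least 1281. The other 3 of the 5 narrowest, of 1.32 to 1.501 kb, had scores of 751 to 839. One of them, at chr4:155628589-155630089, ended 31 bp before the end of the chromosome.

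The loci in the following lines were placed on mm9 from general knowledge of the mouse map, since no mm9 annotation was used, and the gene order is that of the GRCm38.p6 gene table. The text therefore gives which locus a peak lies at and does not assign a peak to a gene. Spans given for a locus run from its first to its last listed peak and are not the extent of its genes. These loci were chosen with earlier results of these data known, so their marking is a description.

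All 4 Hox clusters carried peaks, in different arrangements. Hox genes encode the homeodomain transcription factors that pattern the body axis, and HOXA9 and its neighbours also act in blood stem cells and in leukaemia. The HoxC cluster, 9 genes in order from Hoxc13 to Hoxc4, carried the single unbroken peak of 133 kb, whose moderate score of 946 ranked 604 in the list. At the HoxA cluster 4 peaks were placed between 52101568 and 52277008 of chromosome 6, covering 80.4% of that span. Whether the outer peaks placed at a Hox cluster lie over Hox genes or over neighbours, such as Evx1 after HoxA, was not determined. The main HoxA peak was 68.3 kb long at 52141970 to 52210236 with a score of 1773, the seventh highest of the list. A peak of 24.0 kb with a score of 1315 began 1.01 kb after it, and the outer peaks scored 808 and 766.

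The HoxB cluster, 10 genes from Hoxb13 to Hoxb1, had 5 peaks over 212 kb of chromosome 11 (96024987 to 96237396), covering 65.6% of the span. The widest of these was 72.7 kb with a score of 1180, and the highest score, 1443, was that of a 24.9 kb peak. The HoxD cluster, 9 genes from Hoxd13 to Hoxd1, had 4 peaks over 112 kb of chromosome 2 (74480394 to 74592616). Its main peak was 48.1 kb with a score of 1522, flanked by gaps of 1.10 and 0.879 kb, and the other HoxD peaks scored 839 to 1022. In HoxA and HoxD 1 peak number was missing between the listed peaks, and in HoxB none was. The highest score in each cluster was 1773 in HoxA, 1522 in HoxD, 1443 in HoxB and 946 in HoxC, so the cluster with the widest peak had the lowest maximum.

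Among the chosen loci of other developmental regulators, Tlx1-Lbx1, Tbx2-Tbx4 and Wnt10b-Wnt1 held peaks of the 10 highest-scoring. Other peaks of these 10, such as chr11:116772451-116873861, chr2:27533208-27562859 and chr7:86636654-86696517, were not placed at any locus. Of the 10 widest peaks only that at HoxC was placed. What share of the top peaks lies at developmental genes is therefore not known. At Tlx1 and Lbx1, neighbours that encode homeodomain proteins of spleen development and of migrating muscle precursors, 3 peaks lay between 45198669 and 45382834 of chromosome 19. The top-scoring peak of the list stood in the middle, with a peak of 45.3 kb and a score of 925 on one side and a peak of 16.5 kb and a score of 1315 on the other. At Tbx2 and Tbx4, T-box genes of limb, heart and lung development, 3 peaks covered 77.9% of 88.0 kb. The 18.2 kb peak with the score of 1957 began 0.805 kb after a peak of 21.9 kb with a score of 1272, and a peak of 28.5 kb followed with a score of only 766. At Wnt10b and Wnt1, adjacent genes for secreted Wnt ligands, a pair of peaks of 19.4 and 24.3 kb with scores of 1443 and 1694 lay 3.55 kb apart and covered 92.5% of their span.

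At the forkhead genes Foxq1, Foxf2 and Foxc1, a single peak of 22.3 kb with a score of 1413 lay at chr13:31701836-31724094. The extent of the 3 genes on mm9 was not measured. Whether the peak reaches all of them is therefore not known. Forkhead proteins of this cluster act in mesenchyme and in eye and craniofacial development. The peak stood alone, 9594 kb from the listed peak before it and 9097 kb from the listed peak after it. The second highest score of the list lay at Mapk12, Mapk11 and Plxnb2, which encode 2 p38 kinases and a semaphorin receptor. This locus was named after its score was seen. The peaks placed at this locus were 3 between 88882094 and 89025974 of chromosome 15, with scores of 1266, 839 and 2003. Gaps of 26.2 and 16.2 kb separated them. Which of them lie over the named genes and which over neighbouring genes was not determined.

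**Figure D2:**
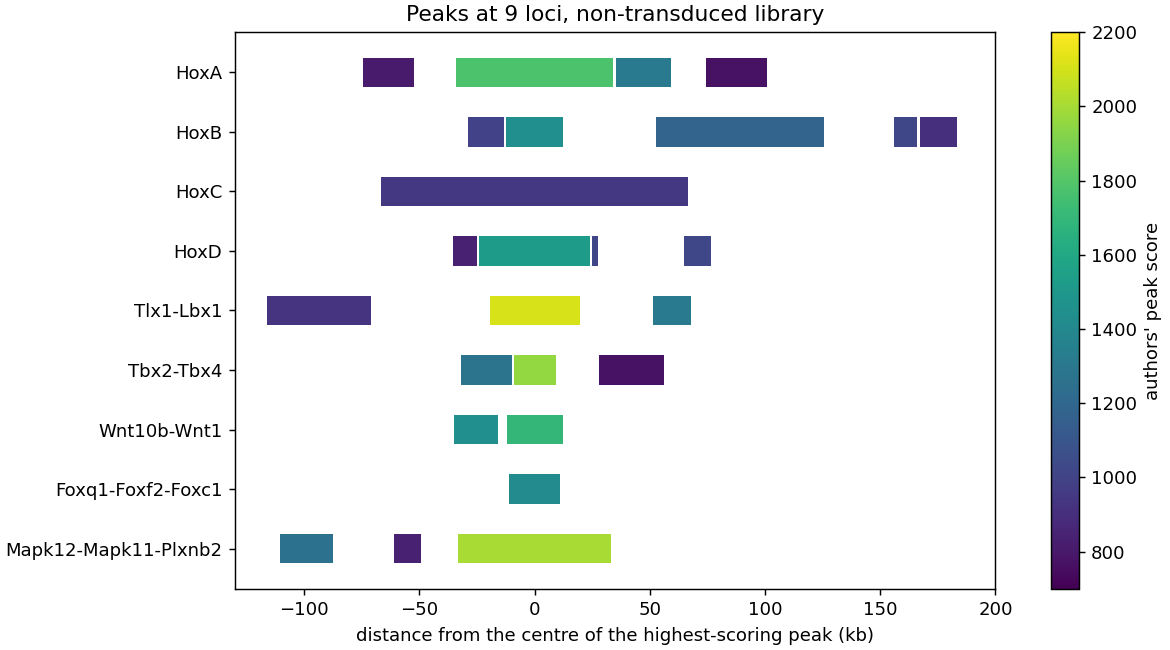
Each row shows the peaks of the non-transduced library at 1 locus as bars drawn to scale, against the distance in kb from the centre of the highest-scoring peak of that locus; the colour is the authors' score. HoxC is 1 bar of 133 kb with a score of 946, HoxB has 5 bars over 212 kb, and the highest score, 2107, is at Tlx1-Lbx1.

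Gaps between neighbouring peaks were mostly shorter than their mean of 1686 kb. Spread evenly over the full length of these chromosomes, 1332 peaks would stand 1981 kb apart. The median gap between the end of a peak and the start of the next was 271 kb (95% order-statistic interval 239 to 311), over 1312 gaps. The middle 50% of gaps ran from 60.7 to 1024 kb, and 10% were over 4023 kb. No random placement was drawn, so how much of this unevenness chance alone would give is not known. A neighbour stood within 50 kb of 498 peaks (37.4%, interval 34.8 to 40.05), within 100 kb of 662 (49.7%) and within 1000 kb of 1170 (87.8%). At the other extreme, 50 gaps exceeded 10000 kb. The longest on an autosome was 43.8 Mb, on chromosome 4 between 63157022 and 106963602.

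The gaps fell into a main group and a small group of very short ones. No gap was under 805 bp, 71 gaps were under 1200 bp, and the next interval of the same kind, from 1200 to 2400 bp, held 27. The peaks on both sides of all 71 shortest gaps had consecutive numbers. A gap under 1200 bp leaves little room for an unlisted call, so this carries little information. Very short gaps of this kind occurred between peaks placed at HoxA, HoxB, HoxD, and Tbx2-Tbx4. Joining peaks within 1000 bp left 1286 domains with a median of 18.6 kb.

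The distance to unlisted peaks is not known, because numbers were missing from the peak names. The numbers reached 1766, so 434 were missing, 421 of them between listed peaks of 1 chromosome, in runs of at most 4. In 984 of the 1312 neighbouring pairs (75%) the numbers were consecutive. Among those pairs the median gap was 198 kb, which is 0.731 of the value for all pairs.

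**Figure D3:**
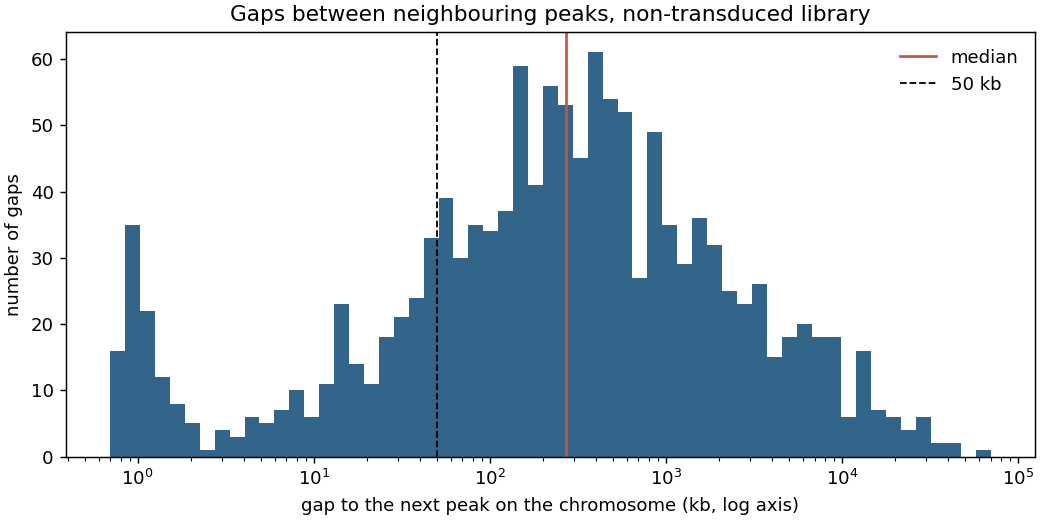
The 1312 gaps between neighbouring peaks of 1 chromosome are counted by length in kb on a log axis; the solid line is the median of 271 kb and the dashed line marks 50 kb. A narrow group of gaps near 1 kb, beginning at 0.805 kb, stands apart from the main group.

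Peaks with a neighbour within 50 kb were wider than those without. Their median width was 21.5 kb (interval 19.9 to 23.2, n = 498 peaks) against 16.8 kb (interval 15.8 to 17.7, n = 834 peaks). Their median score was 945 (interval 928 to 986) against 925 (interval 907 to 928), intervals that meet at 928. A wide peak also leaves less room for a gap, so width and distance are not independent measures. The share with a near neighbour was 45.05% in the highest-scoring 333 peaks and 34.2% in the lowest-scoring 333. By width it was 26.2% for peaks under 5 kb and 52.5% for peaks of 50 to 100 kb. Neighbours within 50 kb were not alike in score: Spearman's rho between them was -0.04 over 294 pairs, against 0.05 over the 1018 pairs further apart. For width it was 0.08 and 0.10.

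Joined at up to 50 kb, the peaks formed 204 clusters of 2 or more and 834 single peaks. Clusters of 3 or more numbered 66 and held 222 peaks (16.7%, interval 14.7 to 18.8). Their median span was 126 kb, and peaks covered 71.4% of the summed spans. Chromosome 11 had 15 of these 66 clusters, chromosomes 2 and 4 had 6 each, and X had none.

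The cluster with the most peaks had 8, over 307 kb of chromosome 7 at 19504208 to 19810977, with single peaks of 12.99 to 52.7 kb and 53.9% of the span covered. It was followed by 3 clusters of 5 peaks, one of which was HoxB. The others were at chr7:106411161-106612389, where the widest peak was 46.5 kb, and at chr14:70852453-71054928, where it was 31.6 kb. HoxA came next, as the cluster of 4 with the most covered length. By covered length the order was different. The cluster around the 132 kb peak of chromosome 6, at 89179615 to 89424619, led with 243 kb covered, 99.01% of its span. Next was chromosome 15 at 78445380 to 78690544, with 201 kb covered in 3 peaks, 82.0% of its span. On chromosome 11 at 61363451 to 61541976 and chromosome 17 at 25550839 to 25715541, 3 peaks each covered 97.8% and 98.8% of the span. The clusters of chromosomes 6, 11 and 17 were thus close to continuous, while the peaks of the chromosome 7 cluster were more widely separated.

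On a fixed grid of 2649 windows of 1 Mb, 2037 windows (76.9%) held no peak, 311 held 1, and 114 held 4 or more. Those 114 windows, 4.30% of the grid, held 581 peaks, or 43.6% of the list. The fullest held 9 peaks each, on chromosome 11 from 116 to 117 Mb and on chromosome 7 from 19 to 20 Mb. A further 6 windows held 8 peaks, and the 3 of them with the most covered length are named. The window on chromosome 15 from 78 to 79 Mb had 348 kb covered. The others were chromosome 2 from 27 to 28 Mb, which includes the peak with the score of 1901, and chromosome 11 from 96 to 97 Mb, which includes HoxB.

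Chromosomes differed widely in their share of the mark. Chromosome 11 had 158 peaks, 1.30 per Mb (95% Poisson interval 1.10 to 1.52), and peaks covered 3.40% of it. Its interval lay above that of every other chromosome except chromosome 19, which had 0.864 per Mb (interval 0.647 to 1.13). Chromosomes 11 and 19 are known as gene-rich, but gene density was not computed here and its relation to peak density was not tested. Chromosome 7 had 0.780 peaks per Mb, chromosome 15 had 0.763 and chromosome 2 had 0.710, and their intervals overlapped. The sparsest autosomes were chromosome 3, with 0.219 per Mb (interval 0.153 to 0.305), and chromosome 13, with 0.266 (interval 0.182 to 0.376). The autosomes thus spanned 5.91 times in density. Chromosomes 11, 2, 7 and 4 together held 513 peaks, 38.5% of the list on 23.2% of the length. The Poisson and binomial intervals take each peak as an independent count and hold no biological spread.

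Denser autosomes also had wider peaks. The median width ranged from 13.1 kb on chromosome 12 to 21.6 kb on chromosomes 2, 11 and 15, and Spearman's rho between density and median width was 0.78 over the 19 autosomes. The autosomes share 1 library, so this is a description without a p-value. Median scores were closer together, from 871 on chromosome 18 to 974 on chromosome 15. On chromosome 11, 60.8% of peaks had a neighbour within 50 kb, the highest share of any chromosome, and the median gap was 143 kb. On chromosome 3 that share was 20% and the median gap was 753 kb.

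Chromosome X was almost empty of listed peaks. It held 2, a peak of 12.9 kb at 70877193 to 70890132 with a score of 1022 and a peak of 3.39 kb at 137530591 to 137533977 with a score of 928. This is 0.0120 per Mb (interval 0.00145 to 0.0434), against 0.538 per Mb on the autosomes together, a density that would place 89.6 peaks on the length of X. The peaks had consecutive numbers, so no numbered call between them was unlisted, and 2 numbers were missing between the first of them and the last listed peak of chromosome 9. Neither peak was near the top of the list by width or score. The sex of the mice, the number of X copies and the share of X that reads could be mapped to were not known here, and their part in this value was not tested.

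**Figure D4:**
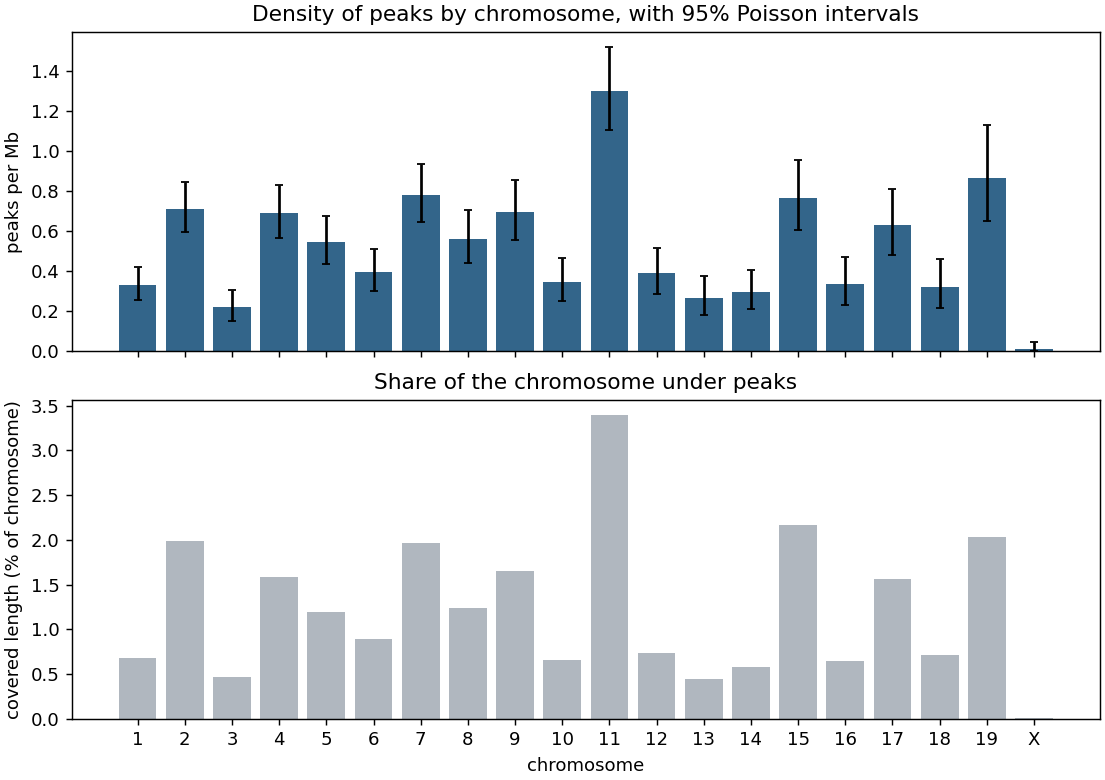
The upper panel gives peaks per Mb of mm9 chromosome length for each chromosome with 95% Poisson intervals as error bars, and the lower panel the percentage of the chromosome under peaks. Chromosome 11 stands highest with 1.30 peaks per Mb and 3.40% covered, and X lowest with 0.0120 peaks per Mb.

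Over all chromosomes together, the distal end held more peaks than the centromeric end. Mouse chromosomes are numbered from the centromere, and their first stretch is unassembled. By midpoint, 888 peaks (66.7%, interval 64.1 to 69.2) lay in the distal 50% of their chromosome's length. The last 10% of the length held 266 peaks (19.97%, interval 17.9 to 22.2), and the first 10% held 49 (3.68%, interval 2.73 to 4.83). In the distal 10% the median width was 21.1 kb and 50.4% of peaks had a neighbour within 50 kb, against 15.3 kb and 12.2% in the first 10%. The distal excess was uneven: over 10% of the peaks lay there on 13 of 19 autosomes, and on 4 of 19 no other part of the same length held more. Nor was the rise steady, with 9.46% of the peaks in the second part of 10% and 6.08% in the next. The share was 40.4% on chromosome 12, 36.5% on chromosome 8 and 32.9% on chromosome 15, where HoxC lies. It was 3.13% on chromosome 13 and 5.08% on chromosome 6, and no peak of chromosome 3 lay there. Without chromosome 11 the share over all chromosomes was 19.3%.

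**Figure D5:**
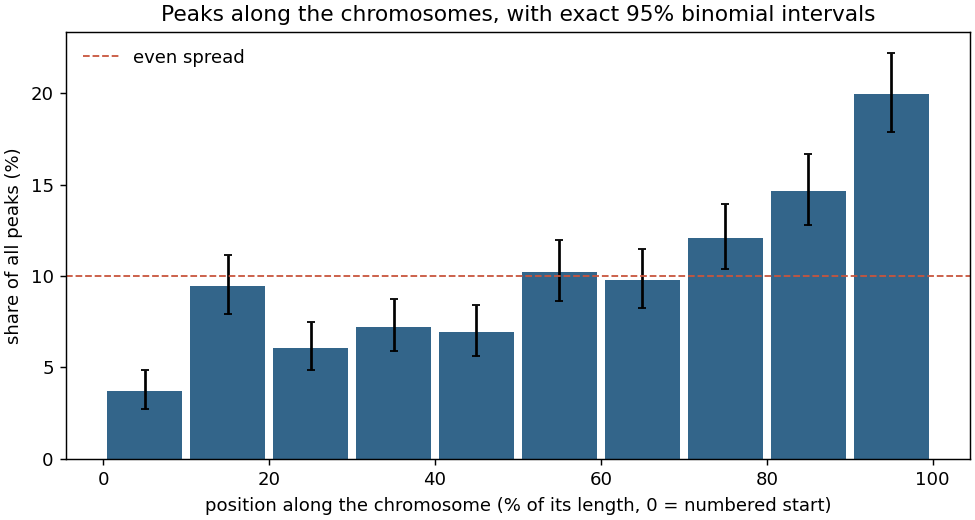
Each bar is the share of the 1332 peaks, in percent, whose midpoint lies in that part of the chromosome, with position given as a percentage of chromosome length from the numbered start; error bars are exact 95% binomial intervals and the dashed line is the 10% of an even spread. The share is 3.68% in the first part and 19.97% in the last.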

How the data were processed

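Peaks were called by the authors for this library by itself; Bowtie, MACS2 and build mm9 are named in the submitters' processing notes, while program versions, settings and the role of the input sample are not given in the sources consulted. Chromatin fixed with 1% formaldehyde was used, per the labels' protocols. The deposited list has 5 columns, the last being the authors' score of each peak, with no stated scale. It was used only to rank and describe peaks within this list. Positions are printed counting from 1.

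From the list, widths, end-to-start gaps, clusters (joined at up to 50 kb), counts in 1 Mb windows and densities per mm9 chromosome length (GenomeInfoDb 1.38.1) were computed with Python 3.11.15 (scipy 1.17.1, numpy 2.4.6, pandas 2.3.3, matplotlib 3.10.9). No listed peak overlapped another or passed a chromosome's mm9 end. Intervals take each peak as an independent count and hold counting error alone. The gaps and the cluster and neighbour counts were recovered in 20 of 20 simulated lists. For the windows only the total number of peaks was checked there, which holds for any placement, so counts per window were not checked.

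Named regions were the 10 widest, the 10 highest-scoring and the 5 narrowest peaks, the fullest clusters and windows, and loci known in Polycomb studies. The locus of Mapk12, Mapk11 and Plxnb2 was not among the latter and was added after its score was seen. Members and lists were chosen with earlier results of these data known. Gene groups were not counted over peaks, and the cell type was not checked against marker genes, because no mm9 annotation was used. The input was not analysed here.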

Additional observations from a re-analysis of the deposited data

How the results depend on the processing

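Shares, medians and the rank correlation were held to a 95% interval of their value, and counts, lengths and ratios to 1.5 times. By these limits 29 of 49 values under alternatives stayed and 20 moved. Only the rank correlation could have changed sign, and it did not. Some values stayed by construction, such as the 999 peaks with the upper 75% by score. With the upper 50% by score the list held by construction 666 peaks over 17.8 Mb. The median width was then 21.4 kb (19.7 kb with the upper 75%) and the median gap 541 kb (392 kb). The share within 50 kb of a neighbour was 24.8% (31.8%), clusters of 3 or more numbered 11 (33), windows of 4 or more peaks 28, and gaps under 1200 bp 16. Selection by score and a shorter list act together here, and the cause was not tested. The median gap over consecutive numbers was 198 kb. Joining within 1000 bp gave 33.6% near a neighbour. A distance of 10 or 100 kb gave 18.9% or 49.7%, and joining at 25 or 100 kb gave 40 or 106 clusters. The ratio of the highest to the lowest chromosome density was 108 with X, 45.1 over the span from first to last peak and 5.91 without X, so its size rests on X. Over its alternatives the rank correlation of width and score ran from 0.23 to 0.26, the share held by the widest 10% from 27.9 to 30.04% and the distal share from 19.3 to 20.3%. The alternatives without chromosome 11, for the distal share and for gaps under 1200 bp were added after seeing the data. No paired analysis was possible because the group has 1 library. Depth is unknown, so an unlisted position may carry the mark below the list's lowest score.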
